A study of Mus musculus with 4 samples.

Results

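The 9 genes described here are the pacemaker channels and gap junctions of lymphatic muscle, Ano1, Cacna1c, Cacna1h, Itpr1, Kcnj8, Abcc9, Kcnma1, Gja1 and Gjc1. They were chosen by name, for their known roles in lymphatic pumping, from the 30406 genes that all 4 libraries list. The question was whether the stromal cells that carry lymphatic muscle cell (LMC) markers in this series also held transcripts of these genes.

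Single cells were sequenced from mouse popliteal lymphatic vessels together with the adjacent saphenous vein, dissected as one preparation and digested. Both tdT libraries came from Cspg4-Cre;Ai9-tdTomato mice of both sexes older than 8 months, with cells sorted for tdTomato, a reporter left on in any cell that has ever used the Cspg4 promoter. The WT and the TNF-Tg library, each from male mice of 9 months on a C57BL/6J background, were sorted by scatter without a reporter. TNF-Tg mice carry a human TNF transgene and develop inflammatory-erosive arthritis. Cells of several mice were pooled in every library, so a library is the unit of replication, and WT and TNF-Tg are represented by 1 library each.

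The libraries held 1504 and 454 cells (tdT replicates 1 and 2), 5488 cells (WT) and 3391 cells (TNF-Tg), with a median of 4932.5 to 12660 unique molecular identifiers (UMIs, counted transcripts) per cell. The tdT replicates were not alike: 34.3% of the cells of replicate 1 had over 10% mitochondrial UMIs, against 0.22% in replicate 2, and replicate 1 was counted with an older software version and gene list. tdTomato had 118 UMIs in tdT replicate 2 and 0 in the WT and TNF-Tg libraries, and is not a listed gene in tdT replicate 1. Summed over all pairs of libraries, 11 cell barcodes were shared.

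In collecting lymphatic vessels, muscle cells fire spontaneous action potentials that drive each contraction. Calcium released from the endoplasmic reticulum through the IP3 receptor Itpr1 opens the chloride channel Ano1, and the resulting depolarisation brings the L-type channel Cacna1c to threshold. Cacna1h carries T-type calcium current. The KATP channel, built from the pore Kcnj8 and the sulfonylurea receptor Abcc9, and the calcium-activated potassium channel Kcnma1 oppose firing, while connexin 43 (Gja1) and connexin 45 (Gjc1) couple neighbouring cells so that a contraction spreads along the vessel.

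Each cell was gated on lists of 6 marker genes per class, none of which is one of the 9 genes. Stromal cells were called LMC-type when Myoc, Pi16, Fndc1, Mfap5, Adamts5 and Fbn1 made up at least 2 of every 3 of their LMC and VSMC marker UMIs, and VSMC-type (named for vascular smooth muscle) in the mirror case for Cxcl14, Mgp, Gdf10, Apod, Inmt and C7. The LMC-type gate held 605, 112, 1275 and 540 cells in tdT replicate 1, tdT replicate 2, WT and TNF-Tg, and the VSMC-type gate 154, 79, 527 and 301. Between 13.8% and 23.2% of the stromal cells of a library lay within 10 percentage points of a limit of these gates. Cells with at least 3 of 6 contractile muscle genes were kept out of both stromal gates in advance, which limits the counts of these genes there. A gate of their own took 10 such cells of tdT replicate 1, 1 of tdT replicate 2 and 0 of WT and TNF-Tg. The contractile genes of muscle were near 0 in LMC-type stroma: Myh11, Acta2, Tagln, Cnn1 and Lmod1 each had at most 7 UMIs per library in all its cells together. Desmin (Des), the sixth contractile marker, was at 39.7, 11.4, 37.6 and 27.9 UMIs per 1000000 UMIs of the class and library (CPM) in the same library order. Des stood at 11.4, 4.81, 1.41 and 3.73 CPM in VSMC-type stroma and at 0.178 CPM in WT leukocytes. Because the gate limits these counts in advance, they cannot decide whether the cells are contractile muscle. LMC-type and VSMC-type are used only as names of the gates. The study identified its muscle clusters partly by Cald1, Tpm1 and Pdgfrb and by a set of muscle-related transcription factors. It saw alpha smooth muscle actin protein in the vessels, where a Pdgfrb reporter overlapped it. The study itself found little Acta2, Myh11 and Tagln in these data and little label in Acta2 reporter mice. It proposes the low read depth of droplet sequencing as a possible reason. It could not fully exclude myofibroblasts from the surrounding tissue.

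Of the 9 genes, 6 had over 3 UMIs in LMC-type stroma of tdT replicate 1, WT and TNF-Tg, and 5 in tdT replicate 2, the smallest library. Itpr1, Kcnj8, Abcc9, Gja1 and Gjc1 were above that limit in all 4 libraries and Cacna1c in 3. Of 103 other channel, transporter and junction genes, 31 were above it in LMC-type stroma of all 4 libraries. The limit is low, at 0.144 CPM in WT, and the share of all genes above it was not counted. Ano1, Cacna1h and Kcnma1 were at or under 3 UMIs in LMC-type stroma of every library. In the order of their CPM in WT, Gja1 (268) stood far above Abcc9 (23.0), Kcnj8 (19.2), Gjc1 (16.7), Itpr1 (7.004) and Cacna1c (2.78), and the 95% Poisson intervals of neighbours in that order overlapped between Kcnj8 and both Abcc9 and Gjc1. UMIs are counted at one end of a transcript, so these levels are per molecule and not per length. The intervals cover counting error only.

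**Figure D1:**
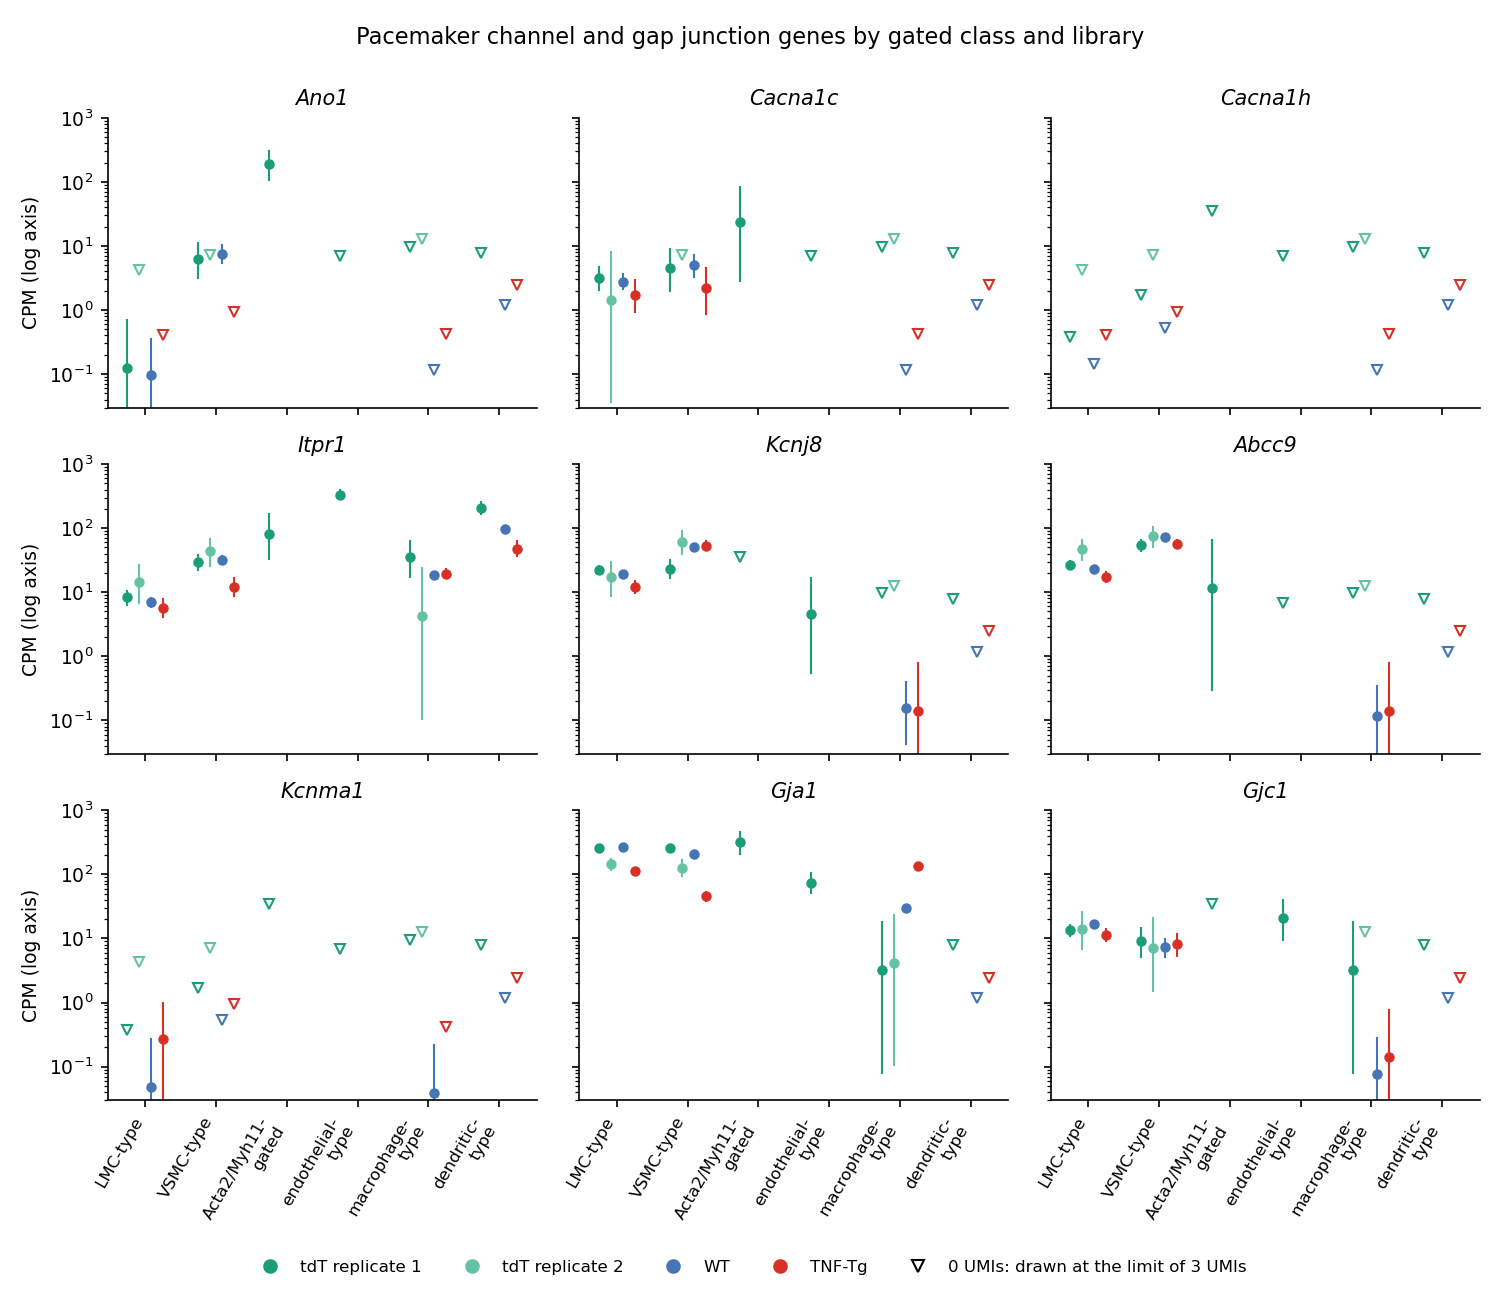
Level of each of the 9 genes in CPM (log axis) by gated class (x axis) and library (colour), with exact 95% Poisson intervals cut at the lower axis limit; open triangles mark 0 UMIs at the limit of 3 UMIs, and sums of under 10 cells are not drawn. Gja1 lies between 114 and 268 CPM in LMC-type stroma, while Ano1, Cacna1h and Kcnma1 lie below 1 CPM there or have 0 UMIs.

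The trigger of the pacemaker, Ano1, was nearly absent from LMC-type stroma. This calcium-activated chloride channel gene (chr7:144588549-144751974, minus strand, GRCm38) had 1, 0, 2 and 0 UMIs in the LMC-type cells of tdT replicate 1, tdT replicate 2, WT and TNF-Tg. VSMC-type stroma held 11, 0, 43 and 0 UMIs. In WT, 35 of 527 VSMC-type cells (6.64%, exact binomial 95% interval 4.67 to 9.12) had an Ano1 UMI, against 2 of 1275 LMC-type cells (0.157%) and 1 of 2768 leukocytes (0.0361%), at median depths of 10950, 16173 and 12010 UMIs. The LMC-type level was thus close to the background share of leukocytes, and the VSMC-type share stood above both although those cells were shallower.

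Thinned to 3000 UMIs per cell, 14 of 477 WT VSMC-type cells (2.94%) and 0 of 1262 LMC-type cells kept an Ano1 UMI. The LMC-type over VSMC-type ratio of CPM was 0.0126 in WT (95% interval 0.00148 to 0.0485) and 0.0201 in tdT replicate 1 (0.000468 to 0.139). The direction was the same in both libraries that held over 3 Ano1 UMIs in stroma. Ano1 passed the filter on low counts only through classes in which it was high, so its values across libraries are a description. edgeR's log2 fold was -5.78 (SE 0.75, adjusted p = 0.00132, Benjamini-Hochberg over 13411 genes), and this call did not hold without WT (adjusted p = 0.0706) or with DESeq2 (adjusted p = 0.5225). Without tdT replicate 1 the gene did not pass the filter.

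Most Ano1 UMIs of tdT replicate 1 lay outside both stromal classes. Cells gated on at least 3 of the 6 contractile genes numbered 10 in that library, 1 in tdT replicate 2 and 0 in WT and TNF-Tg. The 10 cells held 548 Acta2 UMIs and 159 Myh11 UMIs, but also the keratins Krt14 (140 UMIs) and Krt5 (69 UMIs), with at least 1 of these keratins in 9 of the 10. They held the epithelial transcription factor Trp63 in 8 cells, and Des and the mural genes Rgs5 and Notch3 at 0. These data go against a vessel muscle label, and the cells are called Acta2/Myh11-gated here. Ano1 was at 187 CPM in them (16 UMIs in 6 cells, all 6 with a keratin UMI; 95% Poisson interval 107 to 304).

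A further 19 cells of tdT replicate 1, gated on keratin genes after the values had been seen, held 89 Ano1 UMIs (296 CPM) in 15 cells, which is 72.4% of that library's 123. The single Acta2/Myh11-gated cell of tdT replicate 2 held 10 Rgs5 UMIs, no keratin UMI, 1 Kcnj8 UMI and no UMI of the other 8 genes. The TNF-Tg library had no Ano1 UMI in any of its 3391 cells.

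**Figure D2:**
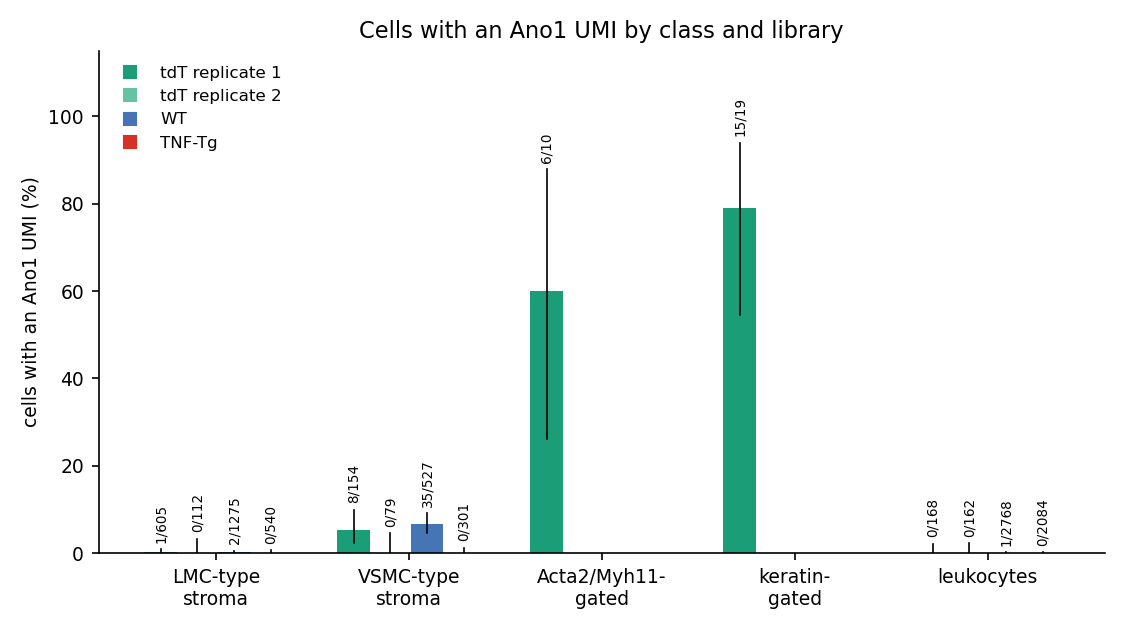
Percent of cells with at least 1 Ano1 UMI (y axis) by class and library, with exact binomial 95% intervals and cells with a UMI over all cells above each bar; classes of under 10 cells in a library are not drawn. VSMC-type stroma reaches 6.64% in WT, LMC-type stroma stays at or below 0.165%, and 6 of 10 Acta2/Myh11-gated and 15 of 19 keratin-gated cells hold a UMI.

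Cacna1c, the pore of the L-type channel (chr6:118587240-119196418, minus strand), was low in stroma and absent from leukocytes. LMC-type stroma had 25, 1, 58 and 13 UMIs, or 3.14, 1.42, 2.78 and 1.74 CPM. VSMC-type stroma had 8, 0, 28 and 7 UMIs, or 4.54, 0, 4.95 and 2.17 CPM. No UMI was found in 168, 162, 2768 and 2084 leukocytes. edgeR gave a log2 fold of 7.25 for LMC-type stroma over leukocytes (SE 0.80, adjusted p = 2.45e-05), a size that depends on the prior count since every leukocyte sum was at 0. Against the limit of 3 UMIs in the WT leukocytes, the WT level of 2.78 CPM compares with 0.0892 CPM. Between the stromal classes the values overlapped (log2 fold -0.59, SE 0.45, edgeR adjusted p = 0.489).

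Ano1 and Cacna1c were detected together in 0 LMC-type cells of the 4 libraries and in 3 VSMC-type cells of WT. With an Ano1 UMI in only 1, 0, 2 and 0 LMC-type cells, the count of 0 cannot show whether the genes occur together. In WT VSMC-type stroma 35 of 527 cells held Ano1 and 23 held Cacna1c, and the overlap expected from these was not computed.

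Cacna1h, the T-type pore (chr17:25374285-25433783, minus strand), had 0 UMIs in LMC-type and in VSMC-type stroma of all 4 libraries. A count of 0 allows at most 0.377, 4.26, 0.144 and 0.402 CPM in LMC-type stroma, and, by the same limit of 3 UMIs, 0.235% of the 1275 WT cells with a UMI. The other vascular T-type gene, Cacna1g, had 8, 2, 4 and 2 UMIs in LMC-type stroma and 3, 0, 16 and 2 in VSMC-type stroma.

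Kcnma1, the pore of the BK potassium channel (chr14:23289431-24014491, minus strand), had 0, 0, 1 and 2 UMIs in LMC-type stroma and 0 in VSMC-type stroma of every library. In WT, 0 of 527 VSMC-type cells allows up to 0.569% of cells with a UMI by the limit of 3 UMIs. Neither Cacna1h nor Kcnma1 passed the filter on low counts, so both are accounted for by these counts alone.

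Itpr1, an IP3 receptor of the calcium store (chr6:108213096-108551109, plus strand), was lower in LMC-type than in VSMC-type stroma in all 4 libraries. It stood at 8.30, 14.2, 7.004 and 5.76 CPM in LMC-type stroma. VSMC-type stroma had 29.5, 43.3, 32.1 and 12.1 CPM. The groups overlapped only through TNF-Tg VSMC-type stroma, which lay under the LMC-type value of tdT replicate 2. The log2 fold was -1.87 (SE 0.35, edgeR adjusted p = 0.00387). Leaving out tdT replicate 2, WT or TNF-Tg moved edgeR's adjusted p to between 0.0118 and 0.0244. The call at the threshold of 0.01 was thus lost in these fits, with the direction kept. Over the 4 libraries, LMC-type stroma held 265 Itpr1 UMIs, fewer than of the related receptor genes Itpr2 (725) and Itpr3 (798). Between the stromal classes neither Itpr2 (log2 fold -0.04, edgeR adjusted p = 0.973) nor Itpr3 (1.27, edgeR adjusted p = 0.125) passed the threshold.

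Neither stromal class was the richest in Itpr1. Endothelial-type cells of tdT replicate 1 reached 334 CPM (31 of 34 cells with a UMI), and dendritic-type cells 207, 111, 96.8 and 48.0 CPM. LMC-type stroma was below leukocytes as a whole, which had 106, 31.0, 28.9 and 27.3 CPM (log2 fold -2.43, SE 0.34, edgeR adjusted p = 3.51e-05). Among leukocytes, neutrophil-type cells gave the lowest WT and TNF-Tg levels, at 8.44 and 1.28 CPM, and the WT value was not below that of LMC-type stroma.

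The subunits of the KATP channel, Kcnj8 and Abcc9, are neighbours on chromosome 6 (Kcnj8 at chr6:142564837-142571614 and Abcc9 at chr6:142587862-142702315, both minus strand), with 16.2 kb and no annotated gene between them. Both were detected in stroma and nearly absent from leukocytes, and both tended to be higher in VSMC-type stroma. Their upstream sequences are shown because the genes form one channel and were high in the same classes; each is the 200 bases before the first annotated base of the gene, 5′ to 3′ on the gene's strand, from RefSeq (GRCm38.p6), and capitals mark matches to the motifs searched.
Kcnj8, chr6:142571615-142571814, minus strand: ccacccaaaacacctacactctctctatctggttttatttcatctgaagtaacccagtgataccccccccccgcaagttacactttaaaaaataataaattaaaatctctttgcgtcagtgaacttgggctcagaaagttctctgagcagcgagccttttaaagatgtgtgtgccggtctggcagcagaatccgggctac
Abcc9, chr6:142702316-142702515, minus strand: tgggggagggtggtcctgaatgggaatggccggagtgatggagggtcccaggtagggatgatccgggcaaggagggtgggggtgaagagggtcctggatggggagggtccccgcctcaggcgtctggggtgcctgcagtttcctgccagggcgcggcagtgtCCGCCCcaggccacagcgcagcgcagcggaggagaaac
The windows differ in base composition, with 45% G and C for Kcnj8 and 68.5% for Abcc9. The motifs searched, on both strands, were the TATA box (TATAAA), the AP-1 motif (TGAGTCA), an E-box (CAGCTG), the GC box (GGGCGG) and the CArG box. Of these, the Kcnj8 window held none and the Abcc9 window held 1 GC box, a motif found in 31.0% of 32851 promoters of that length. The CArG box, the serum response factor motif of contractile genes, was in 1.18% of promoters.

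Kcnj8 stood at 22.3, 17.0, 19.2 and 12.2 CPM in LMC-type stroma. In VSMC-type stroma it stood at 23.3, 60.2, 50.9 and 53.4 CPM. The classes were alike in tdT replicate 1 (ratio 0.956, 95% interval 0.678 to 1.38) and apart in the other 3 libraries, and no VSMC-type value fell below the highest LMC-type value. The log2 fold was -1.38 (SE 0.32) and missed the threshold (edgeR adjusted p = 0.0124). Without tdT replicate 1 it was -1.84 (SE 0.29, edgeR adjusted p = 0.00273).

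Abcc9 stood at 26.4, 46.9, 23.0 and 17.5 CPM in LMC-type stroma, and at 53.9, 74.6, 73.7 and 57.5 CPM in VSMC-type stroma. All 4 VSMC-type values were above all 4 LMC-type values. The log2 fold was -1.41 (SE 0.20, edgeR adjusted p = 3.94e-04), and it stayed past the threshold with each library left out in turn. Leukocytes had 0, 0, 4 and 1 UMIs of Abcc9 and 1, 0, 8 and 14 of Kcnj8, so the log2 folds of LMC-type stroma over leukocytes were 7.90 (SE 0.37, edgeR adjusted p = 9.79e-10) and 5.46 (SE 0.47, adjusted p = 4.21e-07).

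Both subunits were found in the same cell in 121 of 1275 LMC-type cells (9.49%) and 74 of 527 VSMC-type cells (14.0%) of WT. In TNF-Tg the counts were 20 of 540 (3.70%) and 39 of 301 (13.0%). The overlap expected from the counts of each subunit alone was not computed. Across the 14 sums of classes and libraries, the log2 CPM of Kcnj8 and Abcc9 had a Pearson r of 0.80, which placed Abcc9 at rank 947 among the genes most like Kcnj8. The 3 nearest to Kcnj8 were Vit (r = 0.981), Best1 (0.975) and C1qtnf7 (0.974), and the 3 nearest to Abcc9 were Cpxm2 (0.992), Gpm6b (0.990) and Csmd1 (0.990). These correlations are descriptions, since sums of one library share its depth and cells.

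Connexin 43, Gja1 (chr10:56377330-56402513, plus strand), was the most abundant of the 9 genes in both stromal classes, except in VSMC-type stroma of TNF-Tg. There Abcc9 (57.5 CPM) and Kcnj8 (53.4 CPM) stood above it. Gja1 was at 259, 144, 268 and 114 CPM in LMC-type stroma and at 262, 128, 210 and 45.3 CPM in VSMC-type stroma. A Gja1 UMI was found in 65.8%, 47.3%, 82.9% and 55.0% of LMC-type cells. Across libraries the classes overlapped (log2 fold 0.26, SE 0.64, edgeR adjusted p = 0.887), and tdT replicate 2 and TNF-Tg were the lower libraries in both. Within a library, the LMC-type over VSMC-type ratio was 1.27 in WT (interval 1.20 to 1.36) and 2.51 in TNF-Tg (2.11 to 3.02). LMC-type stroma was thus higher in these libraries beyond counting error. The intervals of tdT replicate 1 (0.990, 0.894 to 1.10) and tdT replicate 2 (1.125, 0.799 to 1.60) included equal levels. The 200 bases before its first annotated base are shown for the TGAGTCA they hold (capitals), the binding motif of AP-1, found in 3.66% of promoters.
Gja1, chr10:56377100-56377299, plus strand: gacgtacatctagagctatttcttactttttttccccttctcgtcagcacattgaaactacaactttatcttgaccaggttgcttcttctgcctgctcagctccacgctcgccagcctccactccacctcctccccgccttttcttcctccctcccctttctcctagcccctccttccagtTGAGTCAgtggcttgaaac

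Connexin 45, Gjc1 (chr11:102799579-102819700, minus strand), was higher in LMC-type than in VSMC-type stroma in all 4 libraries, but not past the threshold. LMC-type stroma had 13.3, 14.2, 16.7 and 11.4 CPM. VSMC-type stroma had 9.09, 7.22, 7.24 and 8.08 CPM. The groups did not overlap, while the log2 fold of 0.73 (SE 0.31) had an edgeR adjusted p of 0.169. Only in WT did the 95% interval of the ratio (2.31, 1.67 to 3.28) leave 1. Leukocytes had 2, 0, 4 and 2 Gjc1 UMIs, and the log2 fold of LMC-type stroma over them was 6.43 (SE 0.46, edgeR adjusted p = 5.71e-08).

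Of 19 other gap junction and pannexin genes, 14 had no UMI in LMC-type stroma of any library, among them Gja4 (connexin 37) and Gja5 (connexin 40), the connexins of arterial vessel walls. One, the connexin gene Gjb5, had 8 UMIs in WT and 5 in TNF-Tg LMC-type stroma, beside 16 and 15 in VSMC-type stroma. Both Gja1 and Gjc1 were found in 232 of 1275 LMC-type cells (18.2%) and 26 of 527 VSMC-type cells (4.93%) of WT. Each gene alone was also found in more LMC-type cells, Gja1 in 1057 against 316 and Gjc1 in 266 against 37. LMC-type cells were deeper too, at a median of 16173 against 10950 UMIs. The overlap expected from these counts was not computed, so the shares cannot show whether the genes occur together more often in either class.

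**Figure D3:**
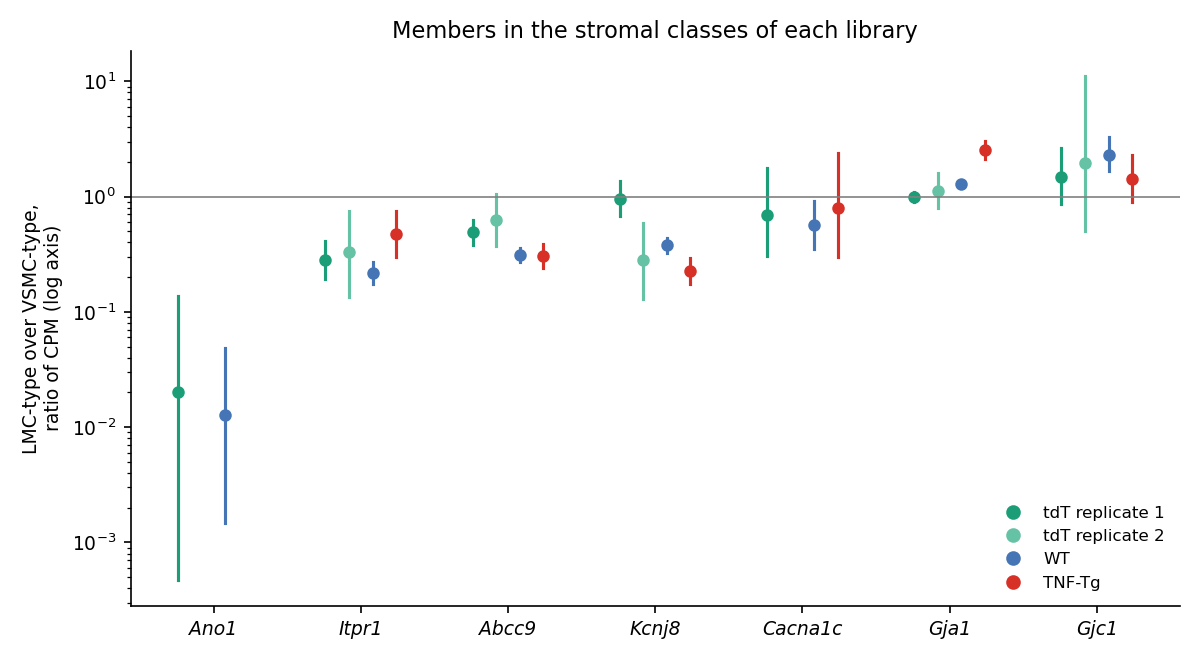
Ratio of CPM in LMC-type over VSMC-type stroma (log axis) within each library (colour) with exact conditional 95% intervals; pairs with 0 UMIs in a class are not drawn. Ano1, Itpr1, Abcc9, Kcnj8 and Cacna1c lie below 1 in each library drawn and Gjc1 above 1, while Gja1 runs from 0.990 to 2.51.

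In all, 7 of the 9 genes were tested between LMC-type and VSMC-type stroma, and Itpr1 and Abcc9 passed the threshold, both lower in LMC-type stroma (3.12% of all genes were called in that direction, 2.97% in the other and 6.09% in either). Ano1 is left out of this count because of the filter. The Itpr1 call was lost with tdT replicate 2, WT or TNF-Tg left out. Against leukocytes, Cacna1c, Kcnj8, Abcc9, Gja1 and Gjc1 were higher in LMC-type stroma, where 25.5% of all genes were, and Itpr1 was lower, as 23.7% were (49.2% in either direction). Genes near 0 in leukocytes passed the filter through stroma, so this count is a description. Ano1 did not differ from the leukocyte level beyond its error (log2 fold 1.20, SE 0.95, edgeR adjusted p = 0.309), and its sign turned without WT (-0.71) and under the stricter gate (-1.34). The log2 fold of Gja1 over leukocytes was 3.12 (SE 0.73, edgeR adjusted p = 0.00241), with adjusted p-values of 0.0211 without tdT replicate 2 and 0.0136 without WT.

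LMC-type stroma was also compared with the 10 Acta2/Myh11-gated cells. Ano1 stood at 0.126 CPM in LMC-type stroma of the same library and at 187 CPM in the gated cells, and is given as a description because of the filter. No other member passed the threshold (1.62% of all genes were called lower in LMC-type stroma, 2.15% higher and 3.77% in either direction). In simulated data this comparison recovered 0 of 87 genes changed 4-fold, so a member that did not pass may still differ. Kcnj8, Gjc1, Cacna1h and Kcnma1 had 0 UMIs in these cells, which allows up to 35.1 CPM, more than the level of Kcnj8 and of Gjc1 in LMC-type stroma, so no fold is given. Gja1 was at 316 CPM in them (27 UMIs, 208 to 459), with a log2 fold of 0.15 (SE 1.34) that changed sign with upper-quartile scaling (-0.32) and DESeq2 (-0.21). This comparison rests on the 1 library with at least 10 such cells, whose sum was taken to vary like the others. The median log2 fold of all genes was 0.86, and 288 genes were called higher and 217 lower; with upper-quartile scaling the median was 0.43 and the calls were 172 and 253, and with DESeq2 they were 0.04, 220 and 348.

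The wider list of 103 channel, transporter and junction genes was sorted by role, and 53 of them were tested. Between the stromal classes 3 were called higher in LMC-type stroma (2.97% of all genes) and 2 lower (3.12%), with a median log2 fold of -0.04 beside 0.02 over all genes. Kcnn3 and Ano3, called higher, and Kcnk2, called lower, passed the filter on low counts through the class where they were high. With these left out, as Ano1 was among the members, Slc8a1 remained higher and Trpv2 lower. The small-conductance potassium channel gene Kcnn3 stood at 23.4, 41.2, 6.33 and 4.55 CPM in LMC-type stroma, with 4, 0, 2 and 0 UMIs in VSMC-type stroma (log2 fold 4.16, SE 0.47, edgeR adjusted p = 8.33e-05). Ano3, a relative of Ano1 known mainly as a scramblase-type protein, had 54, 3, 126 and 20 UMIs in LMC-type stroma and 0, 0, 2 and 0 in VSMC-type stroma (4.76, SE 0.64, edgeR adjusted p = 3.11e-04). Both genes were at or near 0 in VSMC-type stroma and passed the filter through LMC-type stroma, so their folds are a description.

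Kcnk2, a mechanically gated leak channel, was lower in LMC-type stroma, with 7, 3, 2 and 4 UMIs there and 44, 3, 51 and 6 in VSMC-type stroma (log2 fold -4.15, SE 0.71, edgeR adjusted p = 0.00195). Kcnk2 passed the filter through VSMC-type stroma, so its fold is a description. In tdT replicate 2 and TNF-Tg it had at most 6 UMIs in either class. The sodium-calcium exchanger Slc8a1 was higher in LMC-type stroma, at 1.38, 12.8, 12.8 and 12.5 CPM against 0.568, 2.41, 5.83 and 3.73 CPM (1.41, SE 0.26, edgeR adjusted p = 0.00301). The cation channel Trpv2 was lower, at 0.755, 0, 0.768 and 0.402 CPM against 1.70, 4.81, 2.47 and 2.17 CPM (-1.88, SE 0.40, edgeR adjusted p = 0.00763). Many of these values are near the floor: Trpv2 had over 3 UMIs in only 2 of the 4 libraries in each class. Slc8a1 had over 3 UMIs in all 4 libraries in LMC-type stroma and in 2 in VSMC-type stroma. Leukocytes of the same libraries had 28.8 to 43.4 CPM of Trpv2 and 3.39 to 36.0 CPM of Slc8a1, and the part of their RNA in these small stromal values was not tested.

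Against leukocytes, 17 of the 53 list genes were higher in LMC-type stroma and 17 lower, beside 25.5% and 23.7% of all genes. Genes near 0 on one side passed the filter through the other, so these counts are a description. The calcium channel subunit Cacna2d1 led those that were higher (log2 fold 9.15, SE 0.38, edgeR adjusted p = 3.62e-10), with 35.8, 71.0, 30.9 and 22.8 CPM in LMC-type stroma and at most 1 UMI per library in leukocytes. VSMC-type stroma held Cacna2d1 too, with 414 UMIs over all libraries. Its log2 fold between the stromal classes was -0.27 (SE 0.18, edgeR adjusted p = 0.439), so it was not particular to LMC-type stroma. Hcn4, the funny-current channel of the heart's pacemaker, had 38, 4, 25 and 12 UMIs in LMC-type stroma, 2, 0, 3 and 0 in VSMC-type stroma and 0 in all leukocytes (log2 fold 6.61 over leukocytes, SE 0.92, edgeR adjusted p = 1.37e-04). Between the stromal classes Hcn4 did not pass the threshold (log2 fold 2.16, SE 0.73, edgeR adjusted p = 0.101). With leukocytes at 0 or 1 UMI, the sizes of the folds over leukocytes depend on the prior count. Cacna2d1 and Hcn4 passed the filter through stroma, so their folds over leukocytes are a description. Against the Acta2/Myh11-gated cells 2 list genes passed, the potassium channels Kcnj2 and Kcnq5, both lower in LMC-type stroma, beside 1.62% of all genes. LMC-type stroma held only 8 Kcnj2 and 24 Kcnq5 UMIs over all libraries. The gated cells were 10 cells of tdT replicate 1, so these calls are a description.

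**Figure D4:**
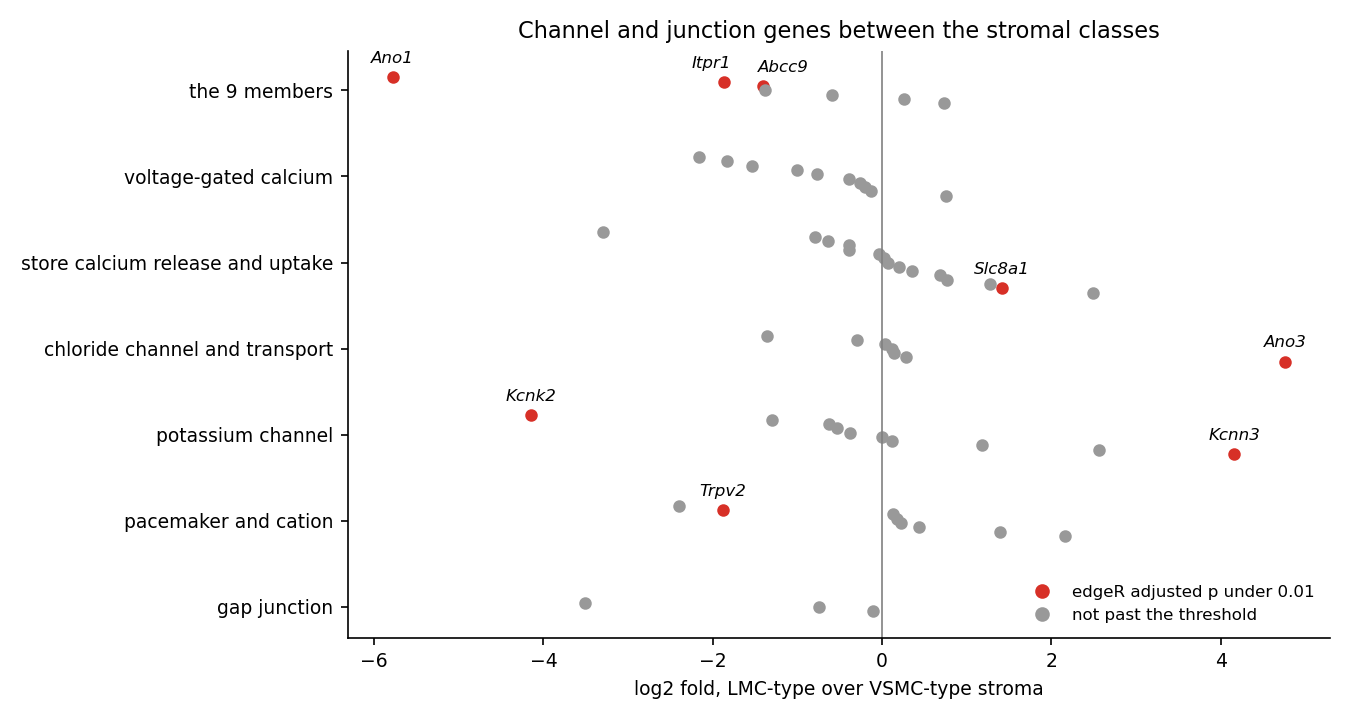
Log2 fold of LMC-type over VSMC-type stroma (x axis) for the tested genes of the 9 members and of the 6 role groups of the wider list (rows; points are spread vertically in order of fold), red where edgeR's adjusted p is under 0.01. Ano1, Itpr1, Abcc9, Kcnk2 and Trpv2 lie to the left and Slc8a1, Ano3 and Kcnn3 to the right.

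The TNF-Tg and WT libraries were compared as ratios of CPM with exact conditional 95% intervals and no test, since each condition is 1 library. Ratios of the tdT replicates, which are libraries of one group, are given for the same genes. The gate markers Fbn1 and Apod were reported by the study as lower in TNF-Tg, Fbn1 in its LMCs and Apod in its LMCs and VSMCs. The gates may therefore select cells differently in the 2 libraries, which was not tested. Gja1 was lower in TNF-Tg stroma: 114 against 268 CPM in LMC-type stroma (ratio 0.425, 0.395 to 0.457) and 45.3 against 210 CPM in VSMC-type stroma (0.215, 0.180 to 0.256). The tdT replicates themselves differed by ratios of 0.554 and 0.487 in these classes, and by 0.256 (0.153 to 0.403) in the stromal cells between the gates. Differences in Gja1 thus also arose between replicate libraries, of 1.81-fold in LMC-type and 2.05-fold in VSMC-type stroma. The 3.91-fold difference in the cells between the gates rests on 19 UMIs in tdT replicate 2. Of the 6 genes with at least 50 UMIs over both LMC-type sums, only Gja1 was at least 2-fold lower in TNF-Tg, beside 4.36% of all genes (3.76% were at least 2-fold higher). In VSMC-type stroma 2 of 5 were, Gja1 and Itpr1, beside 11.9% of all genes (3.40% higher), whose median log2 ratio was -0.20.

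In LMC-type stroma the ratios were 0.634 for Kcnj8 (0.499 to 0.797), 0.680 for Gjc1 (0.530 to 0.864) and 0.763 for Abcc9 (0.625 to 0.928), and the intervals of Itpr1 and Cacna1c held 1. The tdT replicates had ratios of 0.766 for Kcnj8, 1.06 for Gjc1 and 1.78 for Abcc9 (1.19 to 2.57), the last a larger difference than that of TNF-Tg and WT. Itpr1 had a ratio of 0.377 in VSMC-type stroma (0.260 to 0.535), while Kcnj8 there had a ratio of 1.05 (0.864 to 1.27). The tdT replicates had ratios of 1.47 for Itpr1 (0.808 to 2.55) and 2.58 for Kcnj8 (1.51 to 4.35) in that class. Ano1, with 43 UMIs in WT VSMC-type stroma and 0 in TNF-Tg, was at least 8.15-fold lower against the limit of 3 UMIs in the TNF-Tg sum. The tdT replicates also differed in this gene, with 11 and 0 UMIs, although the limit of 7.22 CPM in replicate 2 lies above the 6.25 CPM of replicate 1.

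Macrophage-type cells, gated on C1qa, C1qb, C1qc, Mrc1, Csf1r and Adgre1, went the other way for Gja1. The WT cells held 777 UMIs, or 30.3 CPM, with a UMI in 20.99% of 1910 cells. The TNF-Tg cells held 979 UMIs, or 137 CPM, with a UMI in 45.6% of 522 cells. The ratio was 4.51 (4.10 to 4.96), beside 3.59% of all genes at least 2-fold higher and 7.49% lower. Thinned to 3000 UMIs per cell, the shares were 7.35% and 23.5%. Both tdT libraries had 1 UMI each in these cells, at 3.19 CPM (0.0807 to 17.8) in replicate 1 and 4.21 CPM (0.1065 to 23.4) in replicate 2. These intervals lie below that of WT (28.2 to 32.5), so this level also differed widely between libraries other than TNF-Tg. Those libraries were sorted differently, and the reason was not tested. By contrast, dendritic-type cells had 0 Gja1 UMIs in every library and neutrophil-type cells 1 each in WT and TNF-Tg. Monocyte-type cells had 29 Gja1 UMIs in TNF-Tg (760 cells, 3.47 CPM) and 0 in WT (62 cells), where 0 allows 4.60 CPM. In the macrophage-type cells the 6 stromal markers summed to 108 CPM (WT) and 44.9 CPM (TNF-Tg), against 40843 and 31032 CPM in stroma, and with cells holding any of these UMIs left out the ratio was 4.47 (3.80 to 5.28).

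**Figure D5:**
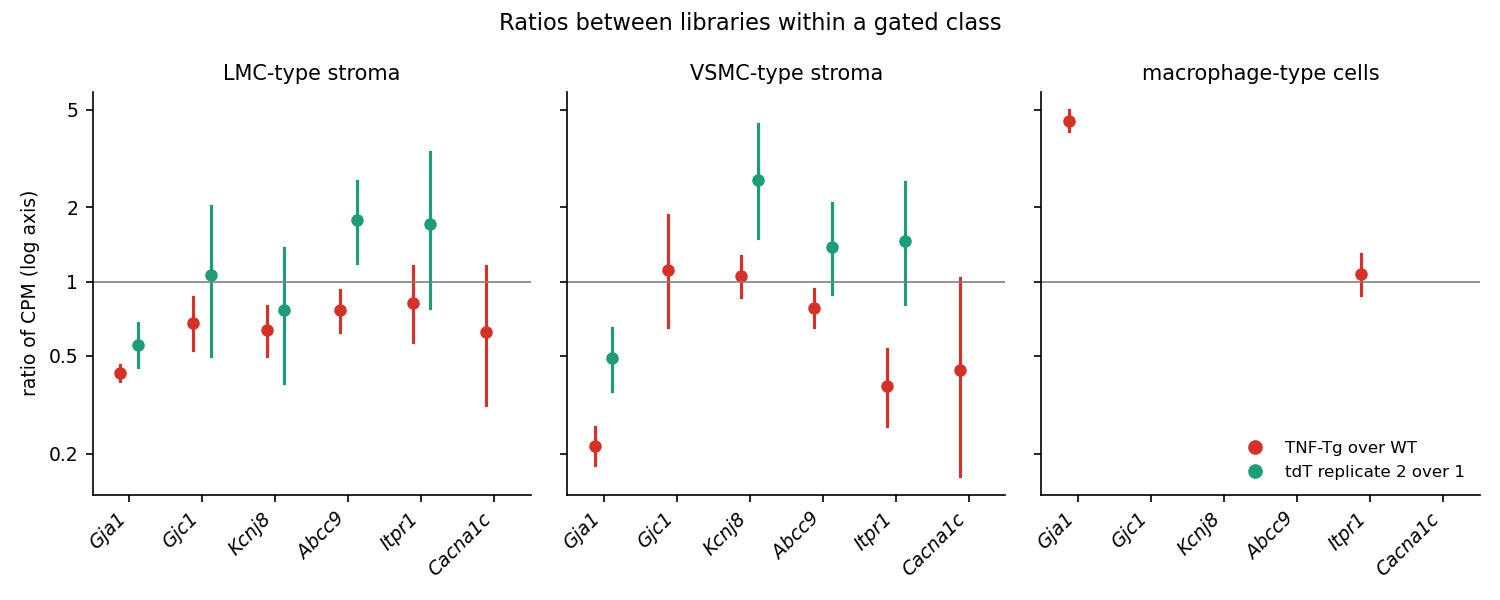
Ratio of CPM (log axis) for TNF-Tg over WT (red) and tdT replicate 2 over 1 (green) in 3 gated classes, with exact conditional 95% intervals; genes with 3 or fewer UMIs in a library are not drawn. Gja1 lies below 1 in both stromal classes for both ratios and at 4.51 in macrophage-type cells for TNF-Tg over WT.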

How the data were processed

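The authors aligned reads to mm10 and counted them with Cell Ranger; the submitters' processing notes name versions 3.1 and 3.1.0 with Seurat 4.0.3, while the file headers give 3.1.0 for tdT replicate 1 and 6.0.1 for the others. The deposited values are raw UMI counts per gene and cell, not normalized. The 30406 genes listed in all libraries were used. Cells were gated on marker genes, and the members and lists were chosen with earlier results of these data known. Levels are UMIs per 1000000 UMIs of a class and library (CPM), with exact 95% Poisson intervals; a count of 0 was set against 3 UMIs.

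Sums per class and library of at least 10 cells (14 sums) were tested with edgeR 4.0.16 (quasi-likelihood, TMM, filterByExpr, library as a block, Benjamini-Hochberg adjustment, threshold 0.01). SEs come from the test's F statistic. A library pools several mice, so p-values measure the spread between libraries. The fit was tested on simulated data: for LMC-type against VSMC-type stroma it recovered 31.9% of genes changed 2-fold and 94.3% of those changed 4-fold, with 4.07% of calls false, and it recovered 0 of 87 changed 4-fold against the Acta2/Myh11-gated cells, which the design calls contractile muscle-type. Scrublet (scanpy 1.11.5) marked 4, 1, 138 and 72 doublets, which were kept except in an alternative. The single-library comparison of WT and TNF-Tg has no test. The naming rule took the 9 members and up to 20 list genes with a level above the list's median (Trpv2 and Slc8a1). These list genes had to pass the threshold against VSMC-type stroma or the Acta2/Myh11-gated cells. Kcnn3, Ano3, Kcnk2, Kcnj2, Kcnq5, Cacna2d1, Hcn4, Cacna1g, Itpr2, Itpr3, Gja4, Gja5 and Gjb5 were named after their values were seen. For each member with at least 50 UMIs the 3 most similar genes were computed. Of the 9 members, 6 had a promoter in the RefSeq table; motifs were chosen with the sequences in view. Positions are from GENCODE M21.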

Additional observations from a re-analysis of the deposited data

Results flagged for a closer look

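The ratio of TNF-Tg over WT for Gja1 was 4.51 in macrophage-type cells and 0.425 in LMC-type and 0.215 in VSMC-type stroma, opposite in direction. The difference between these classes was not tested, since each condition is 1 library. Macrophage-type cells of the tdT libraries had 3.19 and 4.21 CPM of Gja1, below the 30.3 CPM of WT.

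Ano1 reached 296 CPM in 19 keratin-gated cells of tdT replicate 1, cells that belong to none of the classes compared. The limit that a count of 0 would give there is 9.97 CPM, and WT and TNF-Tg held 0 such cells.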

How the results depend on the processing

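Of 209 log2 folds of members under alternatives, 189 kept their direction and side of the threshold and 5 reversed, none of them past the threshold: Ano1 over leukocytes without WT (-0.71; -0.71 to 1.37 over the libraries left out) and under the stricter gate (-1.34), and Gja1 over Acta2/Myh11-gated cells with DESeq2 (-0.21), upper-quartile scaling (-0.32) and no replicate block (-0.01). The genes called between LMC-type and VSMC-type stroma numbered 817, with 522 on Seurat clusters in place of the gate and 494 to 581 with a library left out. Against the Acta2/Myh11-gated cells there were 505, with 833 without the filter on low counts, 1311 on clusters and 391 to 527 with a library left out. Without the library as a replicate block the counts were 308 and 289, and Ano1, Itpr1 and Abcc9 then missed the threshold between the stromal classes (edgeR adjusted p = 0.0108, 0.0403 and 0.0111). Against leukocytes 6597 genes were called, 5224 to 6323 with a library left out.

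For TNF-Tg over WT, clusters gave 2 members at least 2-fold lower in LMC-type stroma in place of 1 and a macrophage-type Gja1 ratio of 3.95; the stricter gate gave a VSMC-type Gja1 ratio of 0.154. The causes were not tested. The comparison with Acta2/Myh11-gated cells has no value without tdT replicate 1, under the stricter gate or with cells of low quality removed, which left under 10 cells. Thinning to 3000 UMIs moved 38 of 47 shares beyond their intervals. Shares of cells with a UMI fall with depth, so this count does not measure how stable the results are. The cluster alternative is 1 run of Seurat 5.3.0. Depth limits what zeros mean, most in tdT replicate 2, where 0 UMIs allows 4.26 CPM in LMC-type stroma.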

Other observations

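Stromal cells between the gates, called neither LMC-type nor VSMC-type, numbered 259, 50, 294 and 230. Their Gja1 level was 257 CPM (WT) and 74.8 CPM (TNF-Tg), a ratio of 0.291 (0.247 to 0.341) beside 0.256 between the tdT replicates, and their Kcnj8 level 29.75 and 38.2 CPM. The clusters used as an alternative to the gate held a contractile-gene cluster of 23, 2, 2 and 14 cells in tdT replicate 1, tdT replicate 2, WT and TNF-Tg, more cells than the marker gate found. The genes nearest to Ano1 over the 14 sums were Ddo (r = 0.934), Rab15 (0.924) and Pnmal2 (0.920), those nearest to Cacna1c were Nhs (0.982), Cfap300 (0.974) and Fgfr2 (0.970), and those nearest to Itpr1 were Fry (0.925), Arrb1 (0.922) and Bcam (0.865). For Gja1 they were D130020L05Rik (0.948), Magi2 (0.941) and Cpeb3 (0.940), and for Gjc1 Pdgfd (0.988), Ntn1 (0.986) and Ccdc149 (0.985); these r values are descriptions over sums that share libraries.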
